A study of Mus musculus with 4 samples.

Results

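The polyA sites described here are those that the neuropil table names for a microRNA (Mir), a small nucleolar RNA (Snora or Snord), a long noncoding RNA (Meg3, Malat1, Neat1, Miat or a Snhg gene), or a predicted or unnamed mouse gene (a Gm number or a name that ends in Rik). They were chosen by the name alone, and the name Mir6982, which stands at the 3′ end of Camk2a, was left out. This gave 922 of 9297 sites, with 745 different names. Of these, 431 sites carried a miRNA name, 275 a Rik name, 147 a Gm name, 57 a snoRNA name, 11 a long noncoding RNA name and 1 the name Snhg14. No site was named Rian.

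The sites were measured by cTag-PAPERCLIP in 4 replicate libraries of CA1 neuropil, the layer of hippocampal field CA1 that holds the dendrites of pyramidal neurons together with axons and glia. All 4 libraries had the genotype Camk2a-Cre x Pabpc1- cTag on the C57BL/6 strain, so that the poly(A)-binding protein Pabpc1 carried a GFP tag in cells with Camk2a-Cre, whose activity within the hippocampus the study assigns to pyramidal neurons of CA1. Per the study, each replicate was made from slices pooled over several adult mice, which were UV-crosslinked, microdissected and purified through GFP. No treatment and no control library entered the comparison. A tag is 1 sequenced fragment of RNA bound by Pabpc1. Whether PCR duplicates were collapsed in the deposited counts is not given in the sources used here, so copies and separate molecules cannot be told apart in a count. In the table, a site is the 1-base position that the authors list for a polyA site.

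MicroRNAs are cut from hairpins, and many hairpins lie in introns of protein-coding genes. Most snoRNAs of mammals are likewise released from introns, often of genes for ribosomal proteins and translation factors or of noncoding host genes. Mature miRNAs and most snoRNAs have no poly(A) tail, whereas the host transcript ends at a polyA signal (AATAAA or ATTAAA) and is bound by poly(A)-binding proteins. Meg3, Malat1, Neat1 and Miat are long noncoding RNAs found largely in the nucleus, and Bc1 is a short noncoding RNA of neurons that is carried into dendrites and has many related copies in rodent genomes.

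Annotation placed many of the names with many tags in the 3′UTR of a coding gene. The sites with the most tags, named Mir5104 and 2510009E07Rik, lay between genes and are described further below. The following windows of 30 bases (GRCm38, strand of the transcript, 5′ to 3′) are shown because each covers the site of a member described below, with the polyA signal in capitals and the annotated gene that holds it.
Mir7664 site in Nsmf (chr2:25062847-25062876, plus strand): cttagagtgaccATTAAActtgaccctctg
Mir5114 site in Scd2 (chr19:44306825-44306854, plus strand): gtgtttgttcatAATAAAatgaaatgatct
Snord37 site in Eef2 (chr10:81182462-81182491, plus strand): aatcattggagtAATAAActacagtggttg
Mir7661 site in Itpr1 (chr6:108551078-108551107, plus strand): ctaaaaatatttAATAAAcgatgcagaatc
Mir7055 site in Slc17a7 (chr7:45176106-45176135, plus strand): caccccactcccAATAAAcgctctggtgta
Snhg14 site in Snrpn (chr7:59983119-59983148, minus strand): ttaactatagatAATAAAtacatagagcaa
Gm5136 site in Syt1 (chr10:108497658-108497687, minus strand): acatggacactcAATAAAaatgttttattt

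The miRNAs that gave such sites their names lie elsewhere in the same genes. The mature sequences are shown from RefSeq (GRCm38.p6) for the miRNAs whose names stand at the Nsmf, Scd2, Itpr1 and Slc17a7 windows, with the seed (bases 2 to 8) in capitals, to set the named RNA beside the sequence where its tags were placed. The last pair is shown because it shares a seed.
miR-7664-5p (chr2:25059811-25059831): cAGUUUACcugucuaugagau
miR-7664-3p (chr2:25059851-25059873): uCUCUUAGgcuggguuaacuaau
miR-5114 (chr19:44303171-44303192): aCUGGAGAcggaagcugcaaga
miR-7661-3p (chr6:108489782-108489803): uUGACUCCcaguuucucucugc
miR-7055-5p (chr7:45173303-45173323): uCAGUGGGuuaucugaguugg
miR-326-3p (chr7:99552328-99552348): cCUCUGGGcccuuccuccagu
miR-330-5p (chr7:19181486-19181507): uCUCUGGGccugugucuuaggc

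None of these miRNA stretches covers the site named for it. Of the 338 miRNA names, 318 had a mature sequence in RefSeq, with 534 mature sequences and 506 different seeds. Seeds shared by more than 1 name numbered 32 and covered 61 names, so most names did not group by seed. Beyond the pair printed (hosts Arrb1 and Eml2), miR-7661-3p shared UGACUCC with miR-3077-3p (hosts Itpr1 and Sap18), and miR-7055-5p shared CAGUGGG with miR-6926-5p (hosts Slc17a7 and Sgsm2).

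Together the 922 sites held 979, 862, 517 and 480 tags in replicates 1 to 4, or 2838 of 34672 tags. This was 6.11%, 13.0%, 8.69% and 7.87% of the tags of each replicate, with 95% Wilson intervals of 5.75% to 6.49%, 12.3% to 13.9%, 8.004% to 9.44% and 7.22% to 8.57%. Replicate 2 lay above the other 3 replicates, and its interval did not overlap theirs. The mean share was 8.93% ± 2.95 (SD, n = 4). Without Bc1-like sites (described below) it was 8.35% ± 0.418, and without the single member with the most tags it was 8.11% ± 1.55. Each library pools RNA purified from many cells, so fewer cells and less RNA per cell cannot be told apart. Since PCR copies are not separate molecules, intervals and limits here cover counting error only.

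Among kinds of name, miRNA-named sites held the most tags. They had 513, 578, 245 and 266 tags in replicates 1 to 4, which was 5.11% ± 2.48 of tags (SD, n = 4), with replicate 2 above the rest. Rik-named sites held 236, 133, 152 and 96 tags (1.90% ± 0.494), and Gm-named sites held 104, 64, 77 and 82 (1.06% ± 0.323). SnoRNA-named sites held 111, 83, 25 and 32 tags (0.723% ± 0.372), with the higher shares in replicates 1 and 2. The long noncoding RNA names held 5, 1, 12 and 1 tags, and most of them were in replicate 3.

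**Figure D1:**
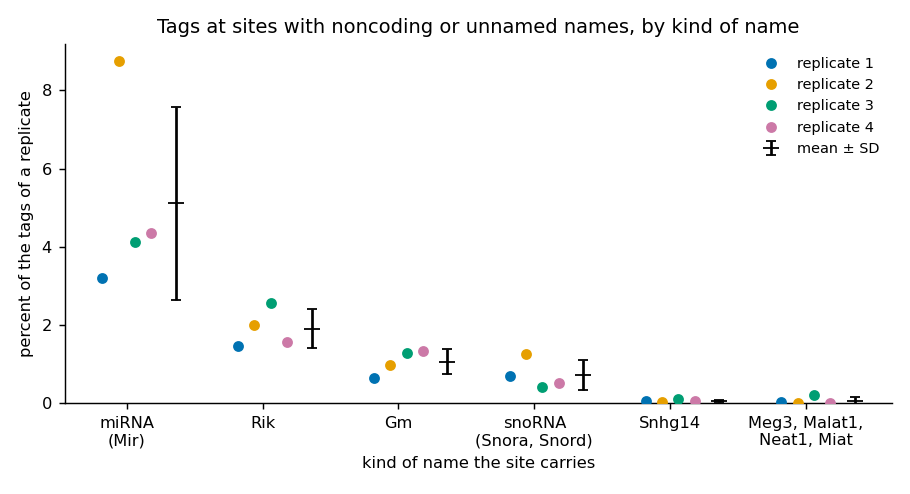
Percent of the tags of each replicate at sites with each kind of name (points, 1 per replicate; bars, mean ± SD, n = 4). The miRNA names held 3.20% to 8.75% of tags and lay above every other kind of name in each replicate, and Snhg14 and the long noncoding RNA names stayed at or below 0.202%.

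Counts per site were low. Of the 922 sites, 567 (61.5%) had 1 tag in all and 51 had at least 10. Tags in more than 1 replicate were found at 277 sites (30.04%), against a background of 34.2% over all sites of the table. The share was 45.6% for snoRNA names, 37.8% for miRNA names, 21.1% for Gm names and 18.9% for Rik names. Tags in all 4 replicates were found at 32 sites (3.47%), with 4.9% over all sites. With at least 2 tags asked of each replicate, 95 sites were left in more than 1 replicate, and without replicate 1 there were 152.

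Names and positions were then compared. Of the 922 sites, 145 (15.7%) were placed within the gene they are named for (GENCODE vM21, same strand), where 76.5% of all sites of the table did so. The 11 long noncoding RNA sites all lay in the named gene, as did 105 of 275 Rik sites (38.2%) and 28 of 147 Gm sites (19.05%). Of 431 miRNA-named sites 1 did, a site with 1 tag in replicate 4 inside Mir6236 on chromosome 9, and of the 57 snoRNA-named sites 0 did. The position of a name relative to its site followed a pattern. For 429 of the 430 miRNA-named sites whose locus was found on the same chromosome, and for 57 of 57 snoRNA-named sites, the locus lay upstream of the site on the same strand. The RefSeq gene whose start was the nearest upstream on that strand carried the name of the site at 364 miRNA-named sites (84.5%), 41 snoRNA-named sites (71.9%), 133 Rik sites (48.4%) and 68 Gm sites (46.3%). The background for this match was 79.8% of all sites, and 81.3% of the sites with other names had it.

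The distance between a site and its named gene differed by kind of name. Sites outside the gene of their name lay a median of 3.74 kb from it for snoRNA names, 17.0 kb for miRNA names, 159 kb for Gm names and 246 kb for Rik names. Over 100 kb separated name and site at 3 snoRNA-named, 81 miRNA-named, 63 Gm-named and 106 Rik-named sites. The largest distance was 3474 kb, for a Rik name.

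**Figure D2:**
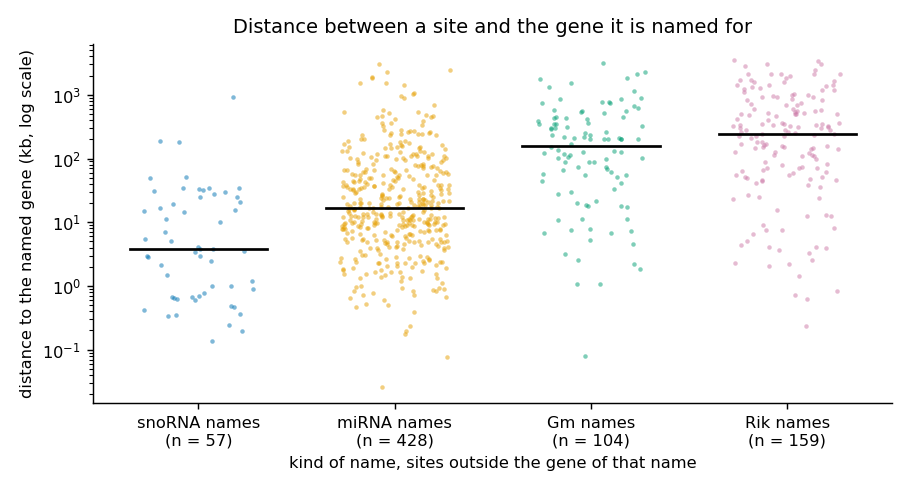
Distance in kb (log scale) between each site and the annotated gene of its name, for sites outside that gene (points, 1 per site; lines, medians). The medians run from 3.74 kb for snoRNA names to 246 kb for Rik names, and each kind of name spans several orders of magnitude.

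By annotation, 490 of the 922 members (53.1%) were in a 3′UTR and 291 (31.6%) fell between genes, while noncoding exons held 81, introns 58 and coding exons 2. The 3′UTR background over all sites was 76.5%. Of miRNA-named sites 330 (76.6%) lay in a 3′UTR, close to that background, and of snoRNA-named sites 39 (68.4%) did. For Gm and Rik names the share was 27.9% and 28.7%, with 55.1% and 49.1% of these sites between genes.

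**Figure D3:**
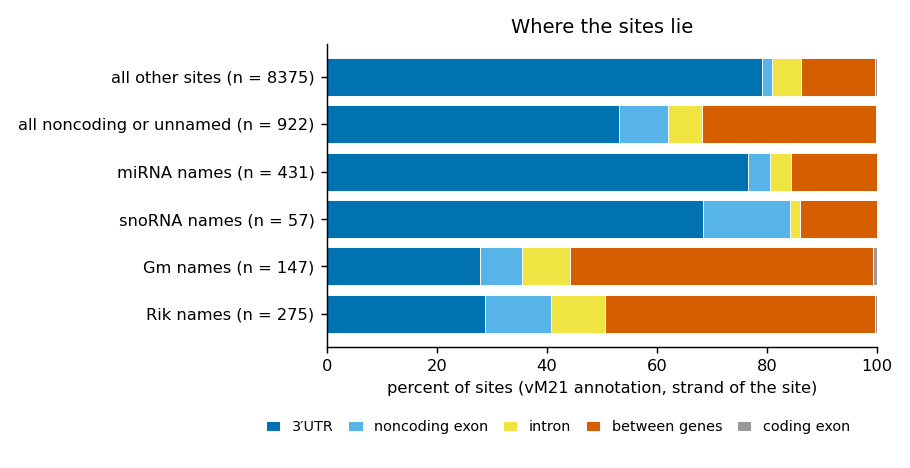
Percent of sites in each class of vM21 annotation, for all other sites of the table, for all sites described here, and for each kind of name with more than 11 sites. 3′UTRs hold 76.6% of miRNA-named and 68.4% of snoRNA-named sites, and intergenic sequence holds 55.1% of Gm-named and 49.1% of Rik-named sites.

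The 3′UTR members resembled ordinary mRNA ends in their signals. AATAAA or ATTAAA lay within 50 bases on either side at 403 of 490 (82.2%) of them and at 83.2% of the 6619 other sites in 3′UTRs. Its first base lay at most 10 bases from the site at 347 (70.8%) and at 73.0%, respectively, with a median position 1 base upstream of the site in both sets. Over all 922 members a signal was found at 670 (72.7%), against 78.1% of all sites. Members between genes had one at 168 of 291 (57.7%). With the 50 bases upstream alone searched, a whole signal was found at 30.2% of all sites, so the listed position often stood at or before the signal. How that position relates to the cleaved end of the RNA is not given in the sources used here.

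These 3′UTR sites belonged to 423 annotated genes, of which 418 had sites with such names only (Gm and Rik genes under their own name included). A gene with 1 site can have only 1 kind of name, and 61 of the 423 had more than 1 member site. Coding genes other than the named one held 420 member sites outside introns, with 1466 tags (583, 369, 232 and 282), in 355 genes. Of these host genes, 335 (94.4%) had no site under their own symbol. The named locus lay inside the same host gene as the site for 350 of the 430 located miRNA-named sites (81.4%), by a median of 12594 bases, and for 45 of 57 snoRNA-named sites (78.9%), by a median of 2866 bases.

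Transcripts of excitatory synapses and neuronal signalling were among the hosts of miRNA names. The site named Mir7664 lay in the 3′UTR of Nsmf (chromosome 2, position 25062859), whose protein signals from NMDA receptors to the nucleus, and had 15, 26, 1 and 0 tags in replicates 1 to 4. It was high in replicates 1 and 2 and at or near 0 in the others, with a mean share of 0.126% ± 0.183 (SD, n = 4). The 0 of replicate 4 allows a share of up to 0.0492%. The site named Mir7055 lay in the 3′UTR of Slc17a7 (chromosome 7, position 45176120), the vesicular glutamate transporter of most cortical and hippocampal excitatory neurons, and had 8, 3, 4 and 8 tags. Its share was 0.0734% ± 0.0396, and the intervals of the 4 replicates overlapped. Itpr1, the inositol trisphosphate receptor of the endoplasmic reticulum, had 16, 7, 2 and 5 tags at a pair of sites named Mir7661, of which the one at position 108551092 of chromosome 6 held 13, 7, 2 and 5 and the other 3 in replicate 1 alone. Spock2, a proteoglycan of the extracellular matrix, had 9, 1, 2 and 5 tags under the name Mir6906.

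Genes of lipid, mitochondrial and nuclear functions were also among the coding hosts with the most tags at miRNA names, beside the ribosomal protein genes Rpl13 and Rps21 given below. Scd2, a fatty acid desaturase, had 18, 14, 4 and 2 tags at the site named Mir5114 (chromosome 19, position 44306837), a share of 0.106% ± 0.0777. Pink1, a kinase that acts at damaged mitochondria, had 6, 6, 1 and 6 tags at the site named Mir7019. The RNA helicase gene Ddx5 had 4, 3, 5 and 10 tags at a pair of sites named Mir3064, and Zmiz1, a transcriptional coregulator, had 11, 2, 5 and 2 at a pair named Mir3075. Each of these genes had tags in all 4 replicates, with shares that differed between replicates by several fold.

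Genes of the translation machinery were among the hosts of snoRNA names. The site with the most tags was named Snord37 and lay in the 3′UTR of Eef2 (chromosome 10, position 81182474), the elongation factor that moves the ribosome along the mRNA. It had 14, 19, 3 and 0 tags (0.106% ± 0.126). The site named Snord95 lay in the 3′UTR of Rack1, a scaffold protein on the small ribosomal subunit, and had 12, 11, 0 and 0 tags, so it was seen in replicates 1 and 2 alone. Further members, picked out after their values were seen, stood at ribosomal protein genes. Rps3 had 12, 5, 0 and 0 tags under Snord15b, Rpl32 had 7, 6, 0 and 2 under Snora7a, and Rpl12 had 1, 12, 0 and 1 under Snora65.

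Ribosomal protein genes could be compared between both kinds of name. Under member names, 15 of them had 17 sites in their 3′UTRs with 82, 59, 7 and 19 tags, a share of 0.458% ± 0.331 (SD, n = 4). The largest were Rpl13 under the name Mir7079 with 26, 6, 0 and 6 tags, and Rps21 under Mir3091 with 13, 12, 2 and 3. Under their own or other names, 27 further genes had 27 sites with 285 tags (0.797% ± 0.537). In both sets replicates 1 and 2 had higher shares than replicates 3 and 4. No ribosomal protein gene had sites of both kinds, but a gene with 1 site cannot have both, and nearly all had 1. A count by own symbol would leave out the 167 tags of the first set. The 30 bases at the Rpl13 site occur 4 times in the genome, and how such tags were placed is not given in the sources used here.

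**Figure D4:**
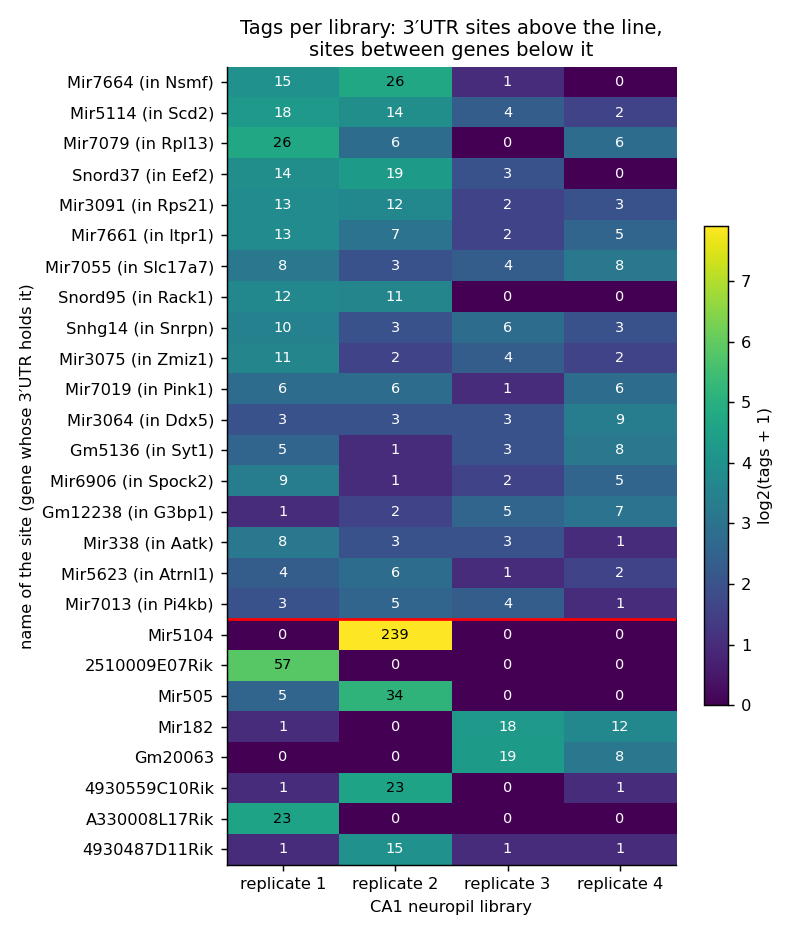
Tags in each of the 4 libraries (numbers; colour, log2 of tags plus 1) at 26 of the sites with the most tags among those chosen by the naming rule, with the gene that holds each 3′UTR site in parentheses. Most 3′UTR sites have tags in 3 or 4 libraries, whereas sites between genes such as Mir5104 (0, 239, 0 and 0) have nearly all tags in 1 library or in a pair.

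Noncoding host genes also appeared under snoRNA and miRNA names. Genes that vM21 types as long noncoding held 20 such sites outside introns, with 30, 7, 6 and 7 tags (0.127% ± 0.0405, SD, n = 4), and 9 of their genes had a site in more than 1 replicate. Gas5, the growth arrest transcript that hosts several snoRNAs, had 7, 0, 1 and 0 tags at a site named Snord47 (chromosome 1, position 161038505). Snhg6 had 4, 0, 1 and 0 under Snord87, Snhg12 had 2, 1, 0 and 0 under Snord99, Snhg8 had 1, 1, 0 and 0 under Snora24, and Zfas1 had 2, 1, 0 and 0 under Snord12. The set also holds Cct6a, known as a chaperonin gene, with 2, 0, 1 and 1 tags under Snora15. These values were picked out after they were seen. Each of these host transcripts had fewer than 10 tags in all.

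Predicted genes with a Gm number fell into a few settings. Inside the gene of their own name lay 28 sites with 46 tags, of which 13 sites were in coding genes. Inside another gene lay 37 sites with 121 tags (40, 20, 21 and 40). The site named Gm5136 lay in the 3′UTR of Syt1 (chromosome 10, position 108497674), the calcium sensor of synaptic vesicle release, with 5, 1, 3 and 8 tags. It was seen in all 4 replicates and was highest in replicate 4, at 0.131%. G3bp1, a stress granule protein, had 1, 2, 6 and 7 tags at a pair of sites named Gm12238, also with the highest count in replicate 4.

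Rik names stood at their own gene more often than Gm names did. Of the 105 Rik sites inside it, 66 lay in coding genes and held 62, 21, 30 and 29 tags, and 24 of these were seen in more than 1 replicate. The remaining 39 lay in noncoding genes and held 10, 9, 16 and 7 tags, with 1 seen in more than 1 replicate. The coding gene 1110051M20Rik (chromosome 2, position 91278268) had 1 tag in each replicate. Of sites in another gene, B230216N24Rik stood at the 3′ end of Pam (chromosome 1, position 97821114), the enzyme that amidates neuropeptides, with 1, 1, 2 and 4 tags. Between genes lay 135 Rik sites, which held 376 of the 617 tags of this kind of name.

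Long noncoding RNAs that were named directly had few tags. Meg3, an imprinted transcript of chromosome 12, had 5 sites with 3, 0, 7 and 1 tags, a share of 0.0382% ± 0.0537 (SD, n = 4), and the 0 of replicate 2 allows up to 0.0454%. The sites with more than 1 tag lay at positions 109545802 with 2, 0, 2 and 0 tags, 109563257 with 0, 0, 2 and 1, and 109545296 with 1, 0, 1 and 0. A polyA signal was found at 1 of the 5. By position Meg3 also held a pair of sites named Mir770, at 109568286 and 109571707, and together the 7 sites had 6, 0, 8 and 4 tags (0.0594% ± 0.0568).

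Malat1, an abundant nuclear RNA, had 4 sites with 1, 0, 4 and 0 tags. Neat1, the scaffold of nuclear paraspeckles, had 1 site with 1, 0, 1 and 0 tags, and Miat had 1 site with 1 tag in replicate 2. No site of Malat1 or Miat was seen in more than 1 replicate, and the sums by gene stood at 0 in at least 1 replicate for every one of these RNAs.

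The single Snhg name stood at a coding gene. The site named Snhg14, after the long imprinted transcript that hosts brain snoRNAs, lay in the 3′UTR of Snrpn (chromosome 7, position 59983134), which encodes a splicing protein of the small nuclear ribonucleoproteins, and 7.38 kb outside the annotated Snhg14. It had 10, 3, 6 and 3 tags, or 0.0645% ± 0.0254. Its intervals overlapped among all 4 replicates. Inside Snhg14 itself 1 site was found, in an intron, named Snord64, with 1, 0, 0 and 2 tags.

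Other noncoding RNAs of brain and genes of imprinted regions were counted for comparison, from a list of 31 genes that the names above do not cover and that includes the coding genes Dlk1 and Rtl1, both without a site. By name 6 of the 31 had a site, with 38 tags. The site named Oip5os1 had 8, 1, 3 and 3 tags but lay outside the gene Oip5os1. Peg13, an imprinted transcript, had 6, 1, 3 and 4 tags at a pair of sites of its name and 6, 1, 3 and 3 at the one of these inside the gene. Pantr1 had 2, 1, 0 and 1, and Xist and Sox2ot had 2 tags and 1 tag in replicate 1. By position 8 of them had a site. The Bc1 gene was one of these, since its site (chromosome 7, position 144914522) carries the name Fgf15 and had 755, 0, 6 and 12 tags. Of the 31 genes, 25 had no site under their name.

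Members that hold Bc1 sequence had most of their tags in replicates 1 and 2. The first 74 bases of Bc1 were split into 63 overlapping words of 12 bases, and sites with 10 or more of these words in the 75 bases on either side were called Bc1-like. These were 28 members (3.04%), against 1.2% of all sites, and all 28 lay between genes. They had 120, 365, 4 and 1 tags in replicates 1 to 4. The Bc1 bases 21 to 50 are printed first, to show how near member sites come to the gene. The closest stretch at 4 member sites follows, with capitals at bases that differ from Bc1. Among those printed, the Mir5104 stretch had 0 differences. Stretches with 0 differences, not printed, also stood at the sites named 2510009E07Rik, Mir505, A330008L17Rik (position 102566798) and Mir5131 (position 45570384). Over these bases, such sites cannot be told from Bc1 by sequence.
Bc1 (chr7:144914490-144914519, plus strand): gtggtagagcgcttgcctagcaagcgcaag
Mir5104 site (chr10:8778579-8778608, plus strand): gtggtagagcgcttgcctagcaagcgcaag
9530026P05Rik site (chr6:94260366-94260395, plus strand): gtggtagagcgcCtgcctagcaagcgcaag
1600002D24Rik site (chr16:95709116-95709145, minus strand): gtggtagagcActtgcctagcaagcgTaag
4930559C10Rik site (chr12:92462169-92462198, minus strand): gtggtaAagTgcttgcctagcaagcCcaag

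Single libraries held most of the tags of these sites. The site named Mir5104 (chromosome 10, position 8778607) had 0, 239, 0 and 0 tags, which was 3.62% of replicate 2 (95% Wilson interval 3.19% to 4.09%), holds 63 of 63 words and lies 942 kb from Mir5104. The site named 2510009E07Rik (chromosome 16, position 21509794) had 57, 0, 0 and 0 tags. Mir505 (chromosome X, position 60222960) had 5, 34, 0 and 0, and 4930559C10Rik (chromosome 12, position 92462161) had 1, 23, 0 and 1. One of the sites named A330008L17Rik (chromosome 8, position 102566798) had 23, 0, 0 and 0. No polyA signal was found within 50 bases of these 5 sites, and 1 of the 28 members had one. Without the Mir5104 site the remaining 27 had 120, 126, 4 and 1 tags. The 84 Bc1-like sites with other names had 5145, 412, 150 and 125 tags, so the members' tags peaked in replicate 2 and those of the other sites in replicate 1. Whether the RNA came from Bc1 or from a copy was not tested, since the table holds counts and not tag sequences.

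Another set of intergenic members had tags mainly in replicates 3 and 4. The bases CAGCCTGG, which also occur in the B1 family of short interspersed repeats, were searched within 75 bases of each site after its values were seen. On the strand of the site they were found at 18 members (1.95%) and at 1.66% of all sites, and on the other strand alone at 2 members. The 18 members had 6, 3, 44 and 44 tags, and the 136 other sites with the motif had 50, 35, 302 and 322. In both sets replicates 3 and 4 held more tags than replicates 1 and 2, although replicate 1 was the deepest library. Windows of 30 bases around the motif (in capitals) are shown for the 3 members with the most tags.
Mir182 site (chr6:29911046-29911075, minus strand): gactttgagtcCAGCCTGGgttacagagca
G630093K05Rik site (chr13:48001044-48001073, plus strand): gagggcacagcCAGCCTGGgctacatagca
Mir691 site (chr16:73326097-73326126, minus strand): gaattctagtaCAGCCTGGgtgacatagca

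The site named Mir182 (chromosome 6, position 29911053) had 1, 0, 18 and 12 tags and lies 254865 bases from Mir182. G630093K05Rik (chromosome 13, position 48001071) and Mir691 (chromosome 16, position 73326101) each had 0, 0, 5 and 10. The 30 bases that end at each of these 3 sites occur once in the genome. Some other members high in replicates 3 and 4 lay beside a run of A. The site named Gm20063 (chromosome 12, position 59654691) had 0, 0, 19 and 8 tags beside a run of 35 A, and a second A330008L17Rik site (chromosome 8, position 101146148) had 0, 0, 17 and 4 beside a run of 38 A. A run of at least 10 A within 50 bases was found at 209 members (22.7%), at 137 of the 291 between genes (47.1%), at 14.8% of all sites and at 43.1% of the other sites between genes. Of the 30 members with tags in replicates 3 and 4 only, 8 (26.7%) had such a run. Such runs were not particular to replicates 3 and 4, since the 209 members had 104, 405, 130 and 57 tags, with the most in replicate 2, and the Mir5104 site has a run of 16 A.

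Repeated sequence was found at a larger share of members than of the table. The 30 bases that end at the site occurred more than once in the genome at 151 members (16.4%), against 10.9% of all sites. The share was 25.9% for Gm, 21.5% for Rik, 28.1% for snoRNA and 8.58% for miRNA names. Pseudogenes lay beside some of the intergenic members. Of 57 members at most 1000 bases past the end of an annotated gene, 39 lay past a pseudogene, with 63 tags (20, 22, 11 and 10), and 22 of these had repeated bases. A polyA signal was found at 37 of these 39. Such sites were 13.4% of the members between genes and 12.8% of the 1135 other sites between genes.

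The 32 members with tags in all 4 replicates held 154, 113, 70 and 106 tags, and 29 of them lay in a 3′UTR. Besides the genes above, hosts with synaptic, cytoskeletal or membrane roles included Dbn1 (drebrin of dendritic spines, under Mir6944, with 3, 5, 1 and 2 tags), Sptan1 (spectrin, under Mir6997, with 3, 2, 3 and 1), Atp9a (a lipid flippase, under Mir7004, with 2, 2, 2 and 4), Fgf13 (a modulator of sodium channels, under Mir504, with 3, 1, 1 and 1) and Pi4kb (a lipid kinase, under Mir7013, with 3, 5, 4 and 1). These are the values of the single site in each gene that was seen in all 4 replicates. Aatk, a kinase enriched in brain, had 8, 3, 3 and 1 tags under Mir338, and Atrnl1 had 4, 6, 1 and 2 under Mir5623.

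Hosts with nuclear or RNA-related roles in this set included Srrm2 (a splicing factor, under Mir5125, with 1, 3, 1 and 1), Acin1 (under Mir6948, with 1, 1, 1 and 4) and Arid1a (a chromatin remodeller, under Mir7227, with 2, 1, 1 and 2). Nudt4 had 1, 2, 3 and 3 tags under Mir3058, Ctdsp2 had 5, 3, 1 and 2 under Mir546, Ripor1 had 2, 1, 1 and 2 under Mir1966, and the annotated gene Gm45837 had 2, 1, 1 and 3 under Mir139. Nudt4 and Arid1a each had a further site of the same name with 1 tag. The 3 members outside 3′UTRs were 4930487D11Rik (1, 15, 1 and 1), Gm4846 (1, 2, 1 and 1) and Snora69 (1 tag in each).

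Members were finally compared with the 8375 other sites in the same libraries, by the percent of tags with each of 6 properties, of which 5 were tested by an exact sign-flip permutation over the 4 replicates, two-sided, whose smallest possible p is 0.13. Tags inside the gene of the site's name made up 10.1%, 4.41%, 13.2% and 9.38% of member tags in replicates 1 to 4 and 81.3% to 87.5% of other tags. The mean difference was -75.7 percentage points ± 5.87 (SD, n = 4). This is a description without a test, because members were chosen by name. Of miRNA-named sites 0.232% lay inside the gene of their name, of snoRNA-named sites 0%, of Rik sites 38.2% and of Gm sites 19.05%. Among the sites with other names it was 83.2%. What sets the difference was not tested. Tags at sites also seen in another replicate were 55.2% to 73.5% of member tags and 70.1% to 83.4% of other tags, a difference of -14.7 ± 9.54 (below 0 in 4 of 4, exact p = 0.13, adjusted p = 0.625 over the 5 properties tested). It was -5.12 ± 3.38 without Bc1-like sites and -9.45 without the Mir5104 site. With 4 replicates no difference could pass a threshold of 0.05.

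The other 4 properties had no shared direction over replicates when all sites were counted. The 3′UTR share was 57.3% ± 10.1 for members and 75.9% ± 11.2 for other sites (difference -18.5 ± 19.2, below 0 in 3 of 4, exact p = 0.25, adjusted p = 0.625). Without Bc1-like sites this difference was -17.9 ± 5.34, below 0 in 4 of 4 (exact p = 0.13). It was -26.7 without replicate 1, -11.3 without replicate 2 and -5.88 ± 24.1 at sites with tags in more than 1 replicate. The share with a polyA signal was 63.5% ± 12.2 and 73.0% ± 11.6 (difference -9.50 ± 21.4, exact p = 0.5, adjusted p = 0.781), and the difference was -19.1 without replicate 1 and -2.15 without replicate 2. For Bc1-like sites it was 12.3%, 42.3%, 0.774% and 0.208% of member tags against 34.2%, 7.17%, 2.76% and 2.22% of other tags, so members were lower in 3 replicates and higher in replicate 2 (mean difference 2.30 ± 23.8, exact p = 1, adjusted p = 1). Without replicate 2 this difference was -8.65, and without the Mir5104 site it was -3.23. For repeated bases the difference was 7.76 ± 20.1 (above 0 in 3 of 4, exact p = 0.625, adjusted p = 0.781), and -1.34 without replicate 2. Without Bc1-like sites it was 8.15 ± 1.81, above 0 in 4 of 4 (exact p = 0.13).

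**Figure D5:**
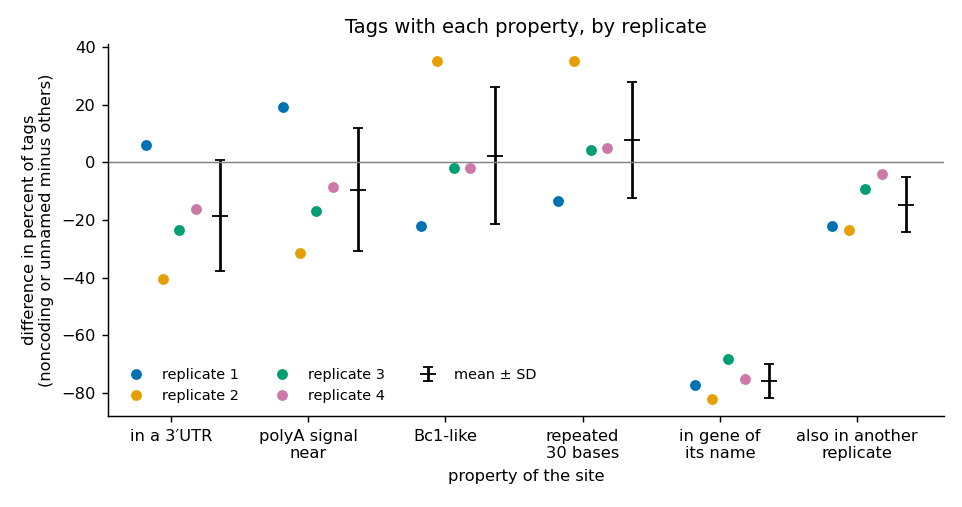
Difference between the sites described here and all other sites in the percent of tags with each property (percentage points; points, 1 per replicate; bars, mean ± SD, n = 4). All 4 replicates lie below 0 for tags in the gene of the site's name and for tags at sites also seen in another replicate, and replicates 1 and 2 fall on opposite sides of 0 for 3′UTR, polyA signal, Bc1-like and repeated sequence.

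Facts of the whole table bear on these values. The replicates held 16017, 6609, 5947 and 6099 tags, and at member sites with enough tags for the comparison the chi-square per degree of freedom ran from 2.96 (replicates 3 and 4) to 24.7 (replicates 2 and 3), so no pair was 1 library listed in duplicate. By position, all 10 genes of a pyramidal neuron marker list were detected and held 0.893% to 1.73% of tags, 23 of them under a member name, those of Slc17a7. The astrocyte list held 0.180% to 0.543% (10 of 10 genes), the oligodendrocyte list 0.131% to 0.560% (7 of 8, Mal at 0), the interneuron list 0.0303% to 0.0656% (5 of 7, Slc32a1 and Vip at 0), the microglia list 0% to 0.0605% (3 of 6, C1qb, Csf1r and P2ry12 at 0), and the blood list 0.0250% to 1.31% (4 of 7). The part of glial or blood RNA in the member values was not tested.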

How the data were processed

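Tags were measured in 4 replicate cTag-PAPERCLIP libraries of CA1 neuropil, all in 1 group. The authors deposited whole-number tag counts, not normalized, at 1-base polyA sites each with its strand and a gene name. The study describes clustering of tags with the CTK package, and per the submitters' processing notes, cutadapt, Novoalign and mm10 were used, with versions not given in the sources used here. How tags that match several places were treated is not given either, so counts at repeated sequence do not locate the RNA. By its name, the table keeps the neuropil tags at peaks of Camk2a cells.

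All positions fit the GRCm38 chromosome lengths. Sites were annotated on their strand with GENCODE vM21, and gene starts and miRNAs were taken from RefSeq (303 of 338 miRNA names matched a hairpin). Of 745 names, 723 were found in vM21. Where transcripts overlapped, 3′UTRs took precedence over coding exons, then 5′UTRs, other exons and introns. Among genes of the same class at a site, the first by alphabetical order of name was taken, so a host given here may overlap another gene. Shares are percents of all tags in a replicate. A count of 0 allows 3 tags of the total (95% Wilson intervals elsewhere). Of 6 comparisons the own-name one is given without a test, and the other 5 used exact sign-flip permutation tests with Benjamini-Hochberg adjustment (Python 3.11.15, pandas 2.3.3, scipy 1.17.1), tested on simulated data. Alternatives left out each replicate, Bc1-like sites, coding names or the top site, and moved the windows and thresholds.

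Named sites were the 15 with the most tags, those in all 4 replicates, all long noncoding RNA sites, the top site of each kind of name, and the 10 coding hosts with the most tags at miRNA names, and 2 of these sites are not reported here. The members and lists were chosen with earlier results of these data known. The searches for CAGCCTGG, for runs of A, for pseudogenes and for the nearest upstream start were chosen after values were seen.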

Additional observations from a re-analysis of the deposited data

Results flagged for a closer look

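Of 44 results with a value in each replicate and at least 10 tags at single sites (sites with fewer were not examined), 8 had a replicate far from the others, as its gap to the nearest of them took a larger part of the whole range than Dixon's critical value for 4 samples. Many of these sites were examined because of high counts, which 1 library can supply, so the number has no chance rate to be set against. The gap was 1 of the range for the sites named Mir5104 (239 tags, all in replicate 2), 2510009E07Rik (57, all in replicate 1) and A330008L17Rik at position 102566798 (23, all in replicate 1). It was 0.939 for Mir505 and 0.953 for 4930559C10Rik, both highest in replicate 2. All 5 of these sites are Bc1-like. It was 0.952 for 4930487D11Rik at position 40328113, with 1, 15, 1 and 1 tags. For the long noncoding RNA names together it was 0.914, with 12 of their 19 tags in replicate 3. For the Mir338 site in Aatk it was 0.852, where replicate 4 had the lowest share (0.0164%, 1 tag).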

How the results depend on the processing

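The overall counts, shares and comparisons gave 67 values when recomputed under other settings, of which 60 kept their direction and side of the threshold or stayed within the spread between replicates, and no test crossed a threshold, which 4 replicates cannot reach. The number of members in more than 1 replicate ran from 152 to 213 when a replicate was left out, and was 95 with at least 2 tags per replicate. The Bc1-like difference ran from -8.65 to 10.4 percentage points when a replicate was left out, below 0 without replicate 2, and was -7.84 at sites in more than 1 replicate and -3.23 without the Mir5104 site. The difference in repeated bases ran from -1.34 to 14.8 when a replicate was left out, below 0 without replicate 2. The difference in polyA signals was 0.501 when the 50 bases upstream alone were searched. At single sites the spread is often as large as the mean, so staying within it says nothing of stability: the share of the Mir5104 site went from 0.904% to 0% without replicate 2 and that of the Nsmf site from 0.126% to 0.0368%. The share of Rik names was 1.22% at sites in more than 1 replicate and 1.19% with coding names counted among the others. No paired analysis was possible between groups because the labels give 1 group; members and other sites were compared within each library. Most members have 1 tag, a depth at which differences between replicates at a single site cannot be detected.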
